A study of Mus musculus with 94 samples.

Results

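Among single basophils sorted as CD34-positive from mouse bone marrow, 7 carried Ccl6 transcripts at 100 CPM or more, where CPM is the number of reads of a gene for every 1000000 gene reads of its cell. They were chosen by that value from the 46 CD34-positive cells with at least 50000 gene reads, out of 94 cells in all. They are called Ccl6 cells here and are set beside the 39 other CD34-positive cells and the 46 kept CD34-negative cells. All cells came from female C57BL/6 mice with no other treatment named, and were live, lineage-negative, Sca1-negative and positive for the IgE receptor FcεRI. The gates differed in CD34 surface staining, with 47 cells of each in the same plate, and cell 3 of the CD34-positive and cell 20 of the CD34-negative gate fell below the read limit. The design names 3 mice, and no label ties a cell to its mouse. Each gate is therefore 1 sample, the values have no replicate check, no test was run, and every comparison is a description of these libraries. Intervals are 95% counting intervals, and since the reads carry no molecular identifiers they cover counting error only.

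Basophils are granulocytes that arm themselves with IgE and release histamine, interleukin 4 and chemokines. They develop in the marrow from CD34-bearing precursors that express Kit and primary granule genes, and lose CD34 as they mature. Ccl6 is a rodent CC chemokine that acts through Ccr1 and is made by myeloid cells. Its gene lies beside those of the related chemokines Ccl9, Ccl3 and Ccl4. The question was whether CD34-positive cells that already carry Ccl6 transcripts resemble CD34-negative cells in the rest of their transcriptome.

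Ccl6 (ENSMUSG00000018927) lies on the minus strand at chr11:83587886-83593087 of GRCm38.p6, the mouse assembly also named mm10. Ccl9 lies at chr11:83572917-83578636 on the same strand. The RefSeq bases directly upstream of both starts, chr11:83593088-83593337 for Ccl6 and chr11:83578637-83578886 for Ccl9, are shown because the Ccl6 cells differed in whether they carried both transcripts. Capitals mark runs of 8 or more bases that the windows share.
Ccl6 upstream: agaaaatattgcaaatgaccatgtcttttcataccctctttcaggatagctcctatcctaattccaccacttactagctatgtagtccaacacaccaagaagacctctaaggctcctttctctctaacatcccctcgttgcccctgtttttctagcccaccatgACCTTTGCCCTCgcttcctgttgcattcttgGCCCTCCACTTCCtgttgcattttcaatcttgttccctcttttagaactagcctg
Ccl9 upstream: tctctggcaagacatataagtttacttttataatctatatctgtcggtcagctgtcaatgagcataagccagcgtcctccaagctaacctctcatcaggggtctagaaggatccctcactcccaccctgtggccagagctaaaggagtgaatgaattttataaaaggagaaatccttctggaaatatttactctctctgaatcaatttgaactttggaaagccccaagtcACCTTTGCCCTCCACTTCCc
The shared letters are ACCTTTGCCCTC, which starts at -86 from the Ccl6 start and -20 from the Ccl9 start, and GCCCTCCACTTCC, at -55 and -14. They overlap in the Ccl9 window and lie apart in the Ccl6 window. Among 32851 promoter windows of 250 bases, searched on both strands, 4 (0.0122%) held the first run and 5 (0.0152%) the second, the Ccl6 and Ccl9 windows included, so that 2 and 3 others held them. The runs were picked because the pair of windows shares them. The match is a description of the letters only. The lncRNA gene E230016K23Rik, at chr11:83582061-83623693, overlaps Ccl6, and the strand setting of the counting is not known. It had 2.88 CPM in cell 37 and no read in the 6 other Ccl6 cells.

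The choice of cells rests on the following Ccl6 levels, which are given as a description. Ccl6 stood at 4080 CPM in cell 23, 2102 in cell 46, 905 in cell 37, 311 in cell 9, 289 in cell 22, 165 in cell 31 and 147 in cell 4. These values come from 2719, 1555, 628, 194, 220, 142 and 84 reads. Just below the limit were cell 20 at 95.4 CPM, cell 12 at 56.5 and cell 45 at 52.1. Of the 39 other cells, 29 had a Ccl6 read, 23 of them with 1 to 5 reads, and their median was 2.64 CPM. The 7 cells held 96.2% of the Ccl6 reads of the kept CD34-positive cells, and the first 3 of them 85.1%. In the CD34-negative gate the median was 2996 CPM and the highest cell reached 14289, and 33 of 46 cells were at 100 CPM or more. At 500 CPM, a limit chosen after the values were seen, 3 CD34-positive and 30 CD34-negative cells remained.

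**Figure D1:**
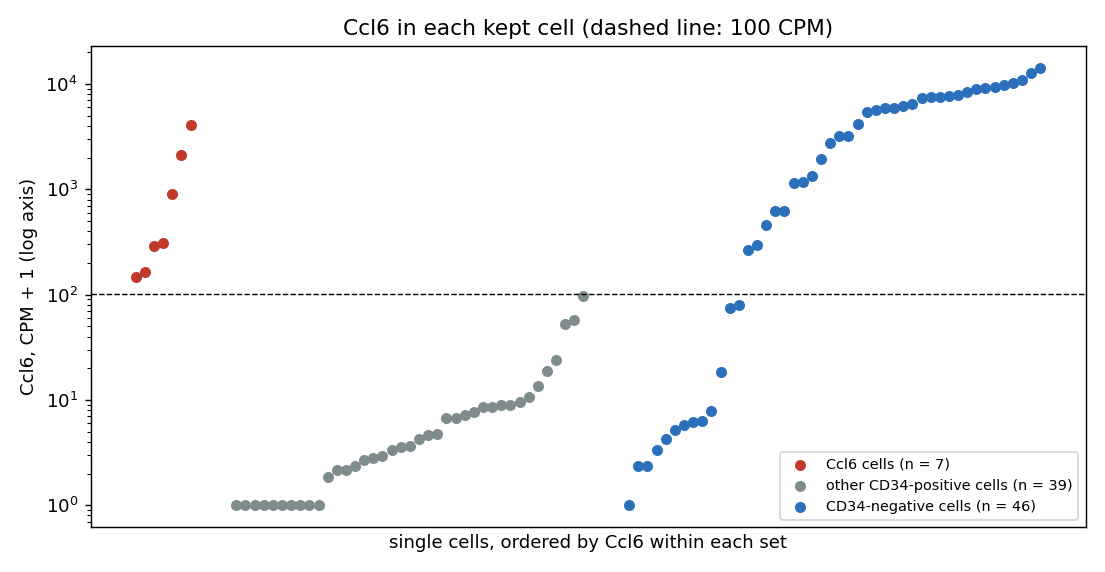
Ccl6 in CPM plus 1 on a log axis for each kept cell, ordered within the 7 Ccl6 cells (red), the 39 other CD34-positive cells (grey) and the 46 CD34-negative cells (blue). The Ccl6 cells run from 147 to 4080 CPM, and the 13 CD34-negative cells below the dashed line of 100 CPM reach down to 0.

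The 7 cells carried the marks of the sort. Each of 8 basophil markers (Mcpt8, Prss34, Cpa3, Fcer1a, Ms4a2, Gata2, Cd200r3 and Hdc) was present in each of them, with the lowest value at 169 CPM for Cd200r3 in cell 9. Cd34 itself, checked because it defined the gate, stood at 162 CPM in cell 23, 77.8 in cell 31 and 25.7 in cell 9, and had no read in the 4 other Ccl6 cells. With each cell drawn down to 200000 gene reads, Cd34 was found in 3 of 7 Ccl6 cells (42.9%, exact Clopper-Pearson interval 9.90% to 81.6%), 25 of 39 other CD34-positive cells (64.1%, 47.2% to 78.8%) and 2 of 46 CD34-negative cells (4.35%, 0.531% to 14.8%). The sort read the protein, which the transcript does not measure. Depth was similar, with a median of 693766 gene reads in the Ccl6 cells (570150 to 861354), 614544 in the other CD34-positive and 737059 in the CD34-negative cells. At that drawn depth, 6128 genes were found in the median Ccl6 cell (4610 to 6797), against 6730 (4122 to 8733) and 4516.5. Gene reads per read of the ERCC spike-in RNA had medians of 11.4, 15.2 and 6.87. Cell 4 had the highest share of reads assigned to more than 1 gene among the 7, at 32.4% of gene plus ambiguous reads, where the others lay between 10.9% and 23.0%.

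Likeness to the CD34-negative cells was first placed on a line. The line runs over 1300 genes that differed by a log2 ratio of 2 or more between the summed CD34-negative and the summed other CD34-positive cells, 344 higher in the former and 956 in the latter. The Ccl6 cells had no part in choosing them, and Ccl6 was not among them. The limit of 100 CPM of Ccl6 did set which CD34-positive cells formed the reference, while the CD34-negative cells were not split by it. A position of 0 is the mean of the other CD34-positive cells and 1 the mean of the CD34-negative cells. Each of those cells was left out of the definition that scored it.

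Among the 7, the 3 cells with most Ccl6 stood toward the CD34-negative side. Cell 37 was at 1.07, cell 23 at 0.832 and cell 46 at 0.524. Cell 22 followed at 0.198, cell 31 at 0.106, cell 9 at 0.0435 and cell 4 at -0.0482. The 39 other cells ran from -0.429 to 0.785 with a median of 0.115, and the CD34-negative cells from -0.0832 to 1.18 with a median of 0.997. Cells 37 and 23 were above each of the 39 others, and 2 of these were above cell 46. The 4 cells with 147 to 311 CPM of Ccl6 had 14, 20, 22 and 24 other CD34-positive cells above them and so lay within their range. With scaling by ERCC reads, only 1 Ccl6 cell was above each other CD34-positive cell, and cell 46 stood at 0.164, within their range. Some technical measures differed between these cells, and their part was not tested. The share of ambiguous reads was 14.5%, 10.9% and 14.3% in cells 23, 46 and 37, with 6, 0 and 4 of the 39 others lower, and 18.3% or more in the rest of the 7. Cells 23 and 37 had 5493 and 5313 genes at the drawn depth, each with 5 others lower, but cell 9 had the fewest at 4610 and cell 46 the most at 6797, with 6128 to 6467 in cells 22, 31 and 4. The mitochondrial share of gene reads was 1.84%, 1.22% and 1.38% in cells 23, 46 and 37, with 15, 2 and 5 others lower, 1.65% in cell 31 and 2.55% to 2.73% in cells 22, 9 and 4.

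**Figure D2:**
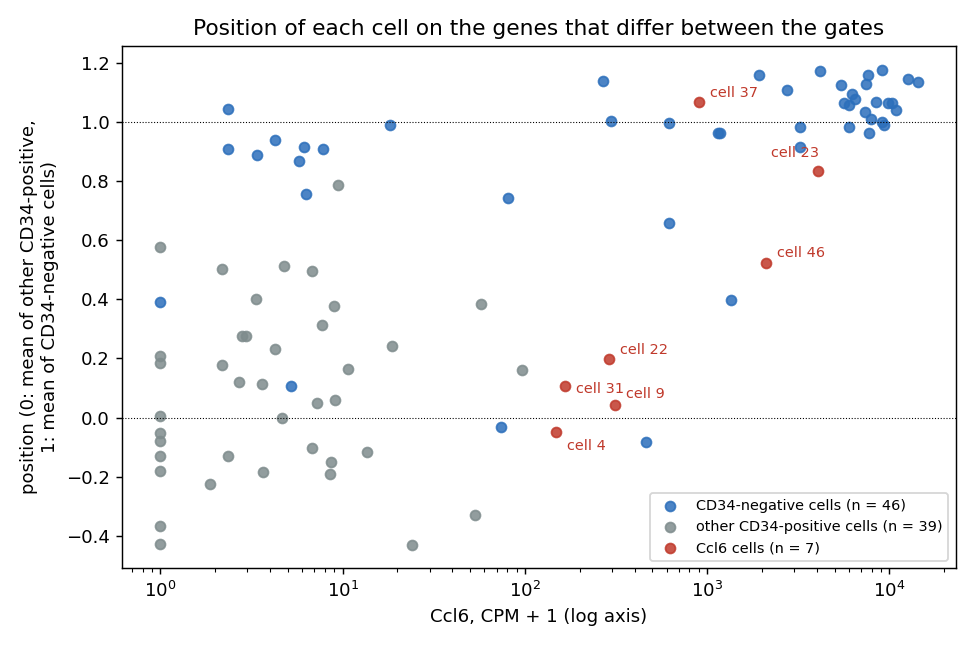
Position of each kept cell (0 is the mean of the other CD34-positive cells and 1 that of the CD34-negative cells) against Ccl6 in CPM plus 1 on a log axis, for the 7 Ccl6 cells (red), 39 other CD34-positive cells (grey) and 46 CD34-negative cells (blue). Cells 37, 23 and 46 lie at 1.07, 0.832 and 0.524, and the 4 other red points between -0.0482 and 0.198.

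The genes making up the line were not shared evenly. Of the genes higher in CD34-negative cells, cell 37 carried 43.9% at 10 CPM or more, cell 23 35.8% and cell 46 35.2%, above each of the 39 other cells, whose highest was 31.7%. The median CD34-negative cell carried 30.2%. Of the genes higher in the other CD34-positive cells, cell 37 carried 7.64% and cell 23 12.8%, near the CD34-negative median of 7.22%. Cell 46 carried 24.2%, within the 12.2% to 54.7% of the others. Cell 46 thus had the CD34-negative genes together with many genes of its own gate. In the 4 cells with less Ccl6, the share of CD34-negative genes ran from 10.2% to 23.0%, beside a median of 20.7% in the others.

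A measure over more genes gave the same order at the top. It used the 13368 genes other than Ccl6 with a read in at least 5 CD34-positive cells. Genes of the line are among them, so it is no separate check, and genes read in fewer CD34-positive cells had no part. The Spearman correlation across genes with the summed CD34-negative profile minus that with the summed other CD34-positive profile was 0.079 in cell 37, 0.059 in cell 23 and 0.013 in cell 46. It was negative, from -0.060 to -0.021, in the 4 other Ccl6 cells. The 39 other cells had a median of -0.042 and a highest value of 0.038, and the CD34-negative cells a median of 0.059. Leaving the S phase and G2/M genes out of the line moved cells 37 and 23 little, to 1.07 and 0.831, and cell 46 to 0.563.

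High positions also occurred in CD34-positive cells with little or no Ccl6. Cell 30, with 8.47 CPM of Ccl6, had the highest position of the 39 others at 0.785, and cell 33, with no Ccl6 read, was at 0.577. In cell 30, Ccl9 stood at 1823 CPM, Ccl3 at 1039 and Mpo at 3.39, and Cd7 had no read. The 13 CD34-negative cells under 100 CPM of Ccl6 had a median position of 0.889, beside 1.06 in the 33 with more. Across the 46 CD34-positive cells the Spearman correlation of Ccl6 with position was 0.261 (Pearson 0.392 with log2 Ccl6, and 0.242 without the 2 farthest cells). Among the 39 others it was 0.117, and across the 46 CD34-negative cells 0.631. Cells of 1 gate share mice and the genes that define the line, so these are descriptions.

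Across all genes, reads were summed over the 7 and over the 39 cells, and the fold given is log2 of the Ccl6 cells' summed CPM plus 1 over that of the others. Of 13368 genes with a read in at least 5 CD34-positive cells, 1496 (11.2%) had a log2 fold of 1 or more and 3634 (27.2%) of -1 or less. The median was -0.23. The sets are unequal in size: 1316 of these genes had no read in the 7 cells and 0 had none in the 39. Among the 5178 genes at 50 CPM or more, the shares were 14.5% and 13.8% and the median 0.08. With the cell that had most of each gene left out of each set, 483 genes were higher and 6132 lower. The counts of gene groups that follow are read beside 11.2% higher and 27.2% lower. For groups whose genes are mostly at 50 CPM or more, 14.5% and 13.8% are the nearer shares.

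The chemokine genes around Ccl6 differed from cell to cell. Of 15 chemokine ligands other than Ccl6, 3 could be compared, 2 were higher by the fold limit and 0 lower, and 10 had no read in the Ccl6 or the other cells. Ccl9 (ENSMUSG00000019122), a Ccr1 ligand, stood at 9.00 CPM in cell 23, 4079.7 in cell 46, 4664 in cell 37, 6.42 in cell 9, 0 in cell 22, 583 in cell 31 and 8.77 in cell 4. Cells 46 and 37 exceeded the highest other CD34-positive cell, at 2559 CPM, while cell 23, highest in Ccl6, was under the others' median of 36. The CD34-negative median was 2672 CPM. Its log2 fold was 1.94 (1.87 to 2.0), with 1.22 without cell 37 and 1.32 without cell 46.

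Ccl3 and Ccl4 encode the inflammatory proteins MIP-1α and MIP-1β, which attract leukocytes through CC chemokine receptors. Ccl3 stood at 488, 791 and 541 CPM in cells 23, 46 and 37 and at 1.16 to 11.8 CPM in the 4 cells with less Ccl6. The other CD34-positive cells had a median of 3.90 CPM and a highest value of 2851, so the ranges overlapped, and the log2 fold was 0.56 (0.44 to 0.68), or -0.06 without cell 46. Ccl4 had 132, 379.9 and 60.5 CPM in cells 23, 46 and 37 and no read in the 4 others. It was read in 9 of the 39 other cells, up to 201 CPM, and the log2 fold was 2.93 (2.63 to 3.24), or 1.54 without cell 46. Both genes were thus present at these levels in the cells above 500 CPM of Ccl6 and near 0 in the rest of the 7.

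Chemotactic receptor genes were higher by the fold limit more often than lower. Of 16 genes, 10 could be compared, 4 were higher and 2 lower, with a median log2 fold of 0.90. The median was -0.23 over all genes and 0.08 over genes at 50 CPM or more. For these receptors, leaving out single Ccl6 cells changed the value. Without cell 37 the receptor median was 0.41. Ccr1, the receptor of Ccl6 and Ccl9, stood at 1076 CPM in cell 23, 752 in cell 46, 1188 in cell 37, 11.2 in cell 9, 1413 in cell 22, 47.6 in cell 31 and 305 in cell 4. Cells 23, 37 and 22 were above the highest of the 39 others, at 876 CPM, and cells 9 and 31 were far under their median of 377. Its log2 fold was 0.91 (0.83 to 0.99), under the limit.

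Cxcr2, the receptor for neutrophil-attracting CXC chemokines, stood at 1777 CPM in cell 37, 536 in cell 23 and 112 in cell 46, and at 0 to 11.8 CPM in the 4 other Ccl6 cells. The others had a median of 16.3 and a highest value of 1039.9, the CD34-negative cells a median of 709.5. Its log2 fold was 1.91 (1.79 to 2.04). Without cell 37 the fold was 0.24. Ccr2, the receptor of Ccl2, had 809 CPM in cell 37, 349.6 in cell 23, 25.5 in cell 31 and 1.75 in cell 4, with no read in cells 46, 9 and 22. Only cells 37 and 23 exceeded the highest other cell, at 281 CPM, and the log2 fold was 3.30 (3.07 to 3.54), or 1.87 without cell 37. Hrh4, the histamine H4 receptor, stood at 657 CPM in cell 37 and 350.1 in cell 46, above the highest other cell at 179, and at 0 to 59.2 CPM in the 5 other Ccl6 cells. Its log2 fold was 3.35 (3.11 to 3.59), and 2.39 without cell 37. Ccr3, the eotaxin receptor, was read in cells 46 and 23 alone among the 7, at 89.2 and 69.0 CPM, with a log2 fold of 3.46 that was 2.48 without cell 46.

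The lower receptor genes were Cxcr4 and C5ar1. Cxcr4, which binds the marrow-retaining chemokine Cxcl12, ran from 0 CPM in cell 4 to 158 in cell 46, with a log2 fold of -1.29 (-1.50 to -1.08). The others had a median of 149.7 CPM and the CD34-negative cells one of 0. C5ar1, the receptor of complement C5a, had 1.02 CPM over the 7 cells, 9.71 over the 39, of which 7 had a read, and 129.8 over the CD34-negative cells. Among S1P receptors, which serve the exit from marrow to blood, S1pr1 stood at 105 and 102 CPM with a log2 fold of 0.04, and S1pr4 at 131 and 70.7 CPM with one of 0.88 (0.70 to 1.06).

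Cd7, an immunoglobulin-family protein best known from T and NK cells, separated the 7 cells in the same way. It stood at 389 CPM in cell 37, 195 in cell 23 and 18.9 in cell 46, and had no read in the 4 other Ccl6 cells. Of the 39 others, 34 had no read and the highest was at 2.67 CPM. The CD34-negative median was 202 CPM. At 200000 gene reads it was found in 3 of 7 Ccl6 cells (42.9%, 9.90% to 81.6%), 1 of 39 others (2.56%, 0.0649% to 13.5%) and 32 of 46 CD34-negative cells (69.6%, 54.2% to 82.3%). The intervals of the first pair overlap. Of all genes compared, Cd7 and the lncRNA gene 9630010A21Rik were the 2 found in each cell over 500 CPM of Ccl6 and in at most 1 of the 39 others. This search was made after the values were seen. Cd7 and F2r also stood in a list of 9 genes that was chosen on these cells for being higher in the CD34-negative gate, of which 4 could be compared, 2 were higher and 2 lower. Of the 10 genes chosen for the opposite, such as Stom, 1 was higher and 5 lower. These lists, and the many genes named here that belong to the line, are not separate evidence of likeness. F2r, the thrombin receptor gene, was read in the same 3 cells among the 7, at 30.3, 12 and 14.9 CPM in cells 37, 23 and 46. Without cell 37 the log2 fold of Cd7 was 4.87, from 6.15, and that of F2r was 1.78, from 2.52.

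**Figure D3:**
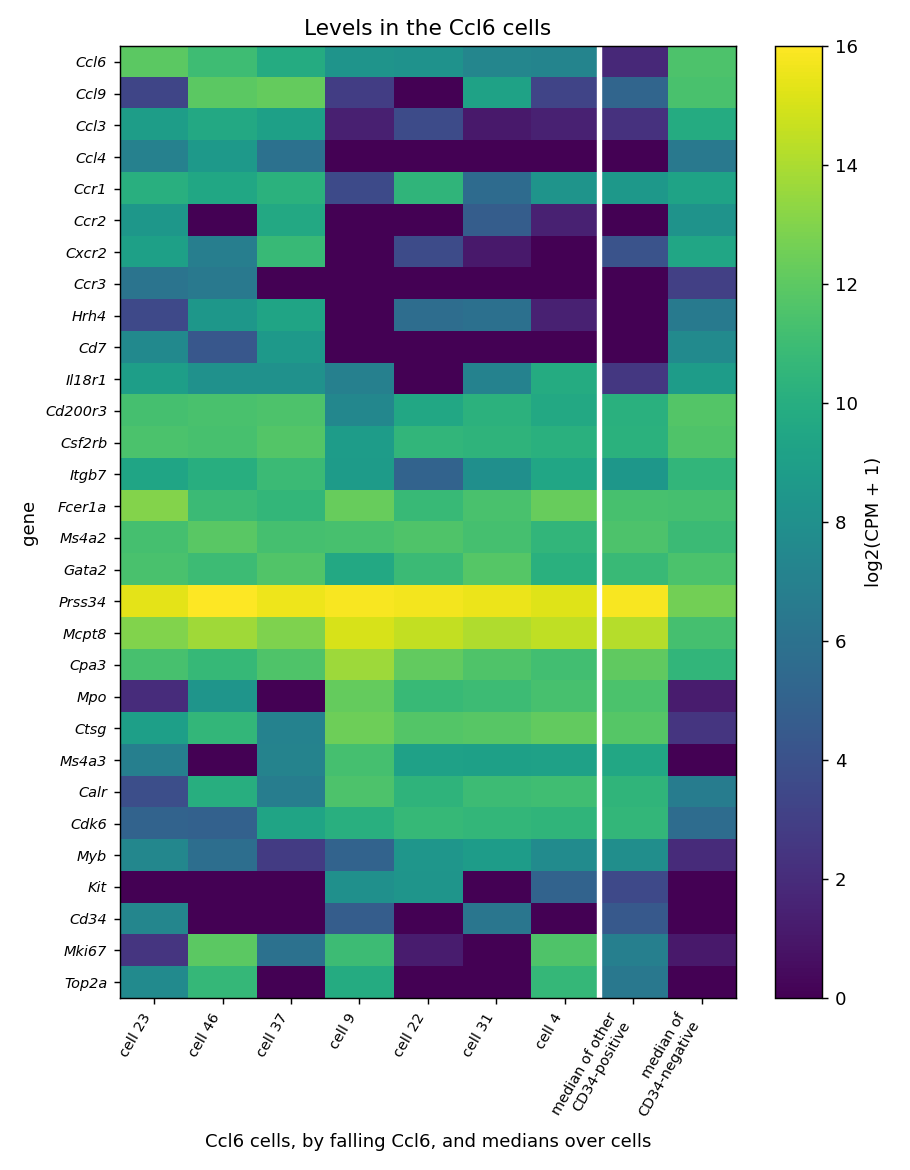
Level, as log2 of CPM plus 1, of 30 genes (rows) in each Ccl6 cell (columns, from most to least Ccl6) and, right of the white line, the medians of the 39 other CD34-positive and 46 CD34-negative cells. Cells 23, 46 and 37 have Ccl3, Ccl4 and Cd7 and low Mpo, and the 4 cells to their right have no Ccl4 or Cd7 read and hold Mpo at 1797 to 4731 CPM.

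Primary granule genes, which precursors of granulocytes express, were low in cells 23 and 37. Of 7 genes, 0 were higher and 2 lower over the 7 cells, with a median log2 fold of -0.43. When each Ccl6 cell was left out, that median ran from -0.81 to -0.26. The share lower was close to the 27.2% of all genes. It was above the 13.8% among genes at 50 CPM or more, the level of most of these 7 genes. Elane (0.23), Prss57 (0.08) and Calr (-0.06) were near 0. With the cell that had most of each gene left out of each set, Elane fell to -5.18, and Prss57 and Calr stood at -0.14 and -0.27. Mpo, myeloperoxidase, stood at 3.00 CPM in cell 23, 318 in cell 46, 0 in cell 37, 4731 in cell 9, 1797 in cell 22, 1998 in cell 31 and 2545 in cell 4. The others had a lowest value of 3.39, a median of 2802 and a highest of 9869, and the CD34-negative median was 1.28. Cells 23 and 37 were below each of the 39, but cell 23 only just, as cells 30 and 5 of these had 3.39 and 3.80 CPM. The 4 cells with less Ccl6 were within the range of the 39. The log2 fold of -1.12 (-1.16 to -1.08) over the 7 cells therefore averages unlike cells, and was -0.91, -0.93 and -0.90, no longer past the limit, without cell 23, 46 or 37.

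Ctsg, cathepsin G, had 513, 1551 and 137 CPM in cells 23, 46 and 37 and 3417 to 5550.0 in the 4 others, beside a median of 3558 in the other CD34-positive and 4.45 in the CD34-negative cells. Ms4a3, a marker of granulocyte-monocyte precursors, had 122, 0 and 139.8 CPM in the first 3 and 555 to 2530.2 in the rest. Calr, the endoplasmic reticulum chaperone calreticulin, stood at 13.5 CPM in cell 23 and 107 in cell 37, but at 1042 in cell 46, close to the others' median of 1419. Over the list of 7 genes, cells 23 and 37 summed to 651 and 383 CPM, below each of the 39 others. Cell 46, at 3016 CPM, had 5 of the others below it. Prtn3, proteinase 3, had no read in the 7 cells and 52.2 CPM over the 39, but 22 of these had none either. With a floor of 3 reads over the 7 cells, it was at least 85.6-fold lower. Elane, neutrophil elastase, was read in cell 22 alone among the 7, at 330.3 CPM. With only the 3 cells above 500 CPM of Ccl6 set against the rest, the median of the list was -3.29.

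Progenitor genes gave a mixed picture. Of 18 genes 16 could be compared, 1 was higher and 5 lower, with a median log2 fold of -0.67. Kit, the stem cell factor receptor, stood at 321 CPM in cell 22, 255 in cell 9 and 33.3 in cell 4, and had no read in cells 23, 46, 37 and 31. Of the 39 others, 20 had a Kit read at 200000 gene reads, so absence was common there too. Cdk6, a kinase of G1 progression in progenitors, stood at 33 and 29.7 CPM in cells 23 and 46, below the lowest other cell at 54.2. It had 637 CPM in cell 37 and 1093 to 1658 in the 4 cells with less Ccl6, where the others' median was 1524. Cd27, a receptor of early progenitors and lymphocytes, had no read in the 7 cells and was found in 15 of 39 others. Hoxa9, Meis1, Myc and Egfl7 were the other lower genes, of which Myc (-1.03) stood between -0.95 and -0.79 without cell 9, 22, 37 or 46 and so was no longer past the limit, and at -1.77 without cell 31. Meis1 (-1.61) was at -2.21 without cell 23 and -2.36 without cell 31. Gfi1, a transcriptional repressor that serves granulocyte development, was higher, with a log2 fold of 2.39 (2.03 to 2.75). It stood at 168, 78.0 and 57.7 CPM in cells 31, 23 and 37, and its fold was 1.35 without cell 31.

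Basophil genes differed little as a list. Of 24 genes 23 could be compared, 4 were higher and 0 lower, with a median log2 fold of 0.38. Prss34, the basophil protease mMCP-11, stood between 38737 CPM in cell 4 and 64619 in cell 46. That is within the range of the 39 others around a median of 59738, and above the CD34-negative median of 6161, though CD34-negative cells reached 92634. Mcpt8, another basophil protease, stood at 8047 and 7524 CPM in cells 23 and 37 and at 13230.0 to 33671 in the rest, beside medians of 19134 in the others and 2539 in CD34-negative cells.

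Cd200r3 and Csf2rb had their highest values among the 7 in the same 3 cells, which Fcer1a, Csf2rb2 and Il18r1 did not. Cd200r3, an activating receptor, stood at 2504, 2725 and 2942 CPM in cells 23, 46 and 37 and at 169 to 1239.9 in the 4 others, where the other CD34-positive cells had a median of 1140.2 and a highest value of 3231. Csf2rb, the common β chain of the interleukin 3 receptor, stood at 2890.1, 2560.3 and 3379 CPM against 462 to 1468. The other CD34-positive cells had a median of 1191 and a highest value of 3567. Csf2rb2, which encodes a β chain specific to interleukin 3, reached 2916 CPM in cell 37, above the highest other cell at 1116, and stood at 201 to 579 in the 6 other Ccl6 cells. Fcer1a, the α chain of the IgE receptor used in the sort, stood at 8351 CPM in cell 23, above the highest other cell at 7074, and was lowest of the 7 in cell 37 at 1547, with a log2 fold of 0.21. Without cell 37 the log2 fold of Csf2rb2 was -0.40 (0.63 with it), and without cell 23 that of Fcer1a was -0.13. The log2 folds over the 7 cells, 0.41 for Cd200r3 and 0.64 for Csf2rb, were under the limit. The 4 basophil genes past it were Osm (2.32), Cd69 (2.11), Cd200r4 (1.88) and Il18r1 (1.86). Cd200r4 rested on cell 23 with 933 CPM, and without that cell its log2 fold was -0.60. Cd69 was at 1.42 without cell 23, Osm at 1.62 without cell 37 and Il18r1 at 1.39 without cell 4. Il18r1, a chain of the interleukin 18 receptor, was spread more widely, from 124 to 909 CPM in 6 of the 7 cells beside a median of 5.15 in the others. Osm encodes the cytokine oncostatin M, and was highest in cell 37 at 209 CPM and in cell 31 at 107, both above the highest other cell at 94.8.

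**Figure D4:**
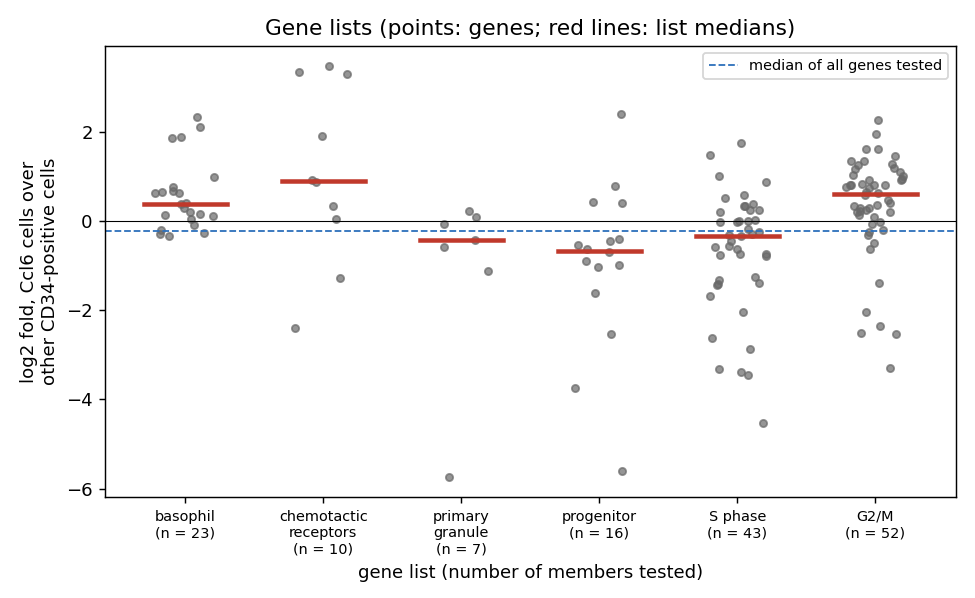
Log2 fold of each compared gene (points) in 6 lists, Ccl6 cells over other CD34-positive cells, with list medians in red and the median of all genes, -0.23, as a dashed line. The medians run from -0.67 for progenitor genes to 0.90 for chemotactic receptors, and most lists spread over both sides of 0.

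Cell cycle genes differed widely among the 7 cells. Of 52 G2/M genes 14 were higher and 6 lower, with a median log2 fold of 0.61 that turned to -1.33 without cell 46. Of 43 S phase genes 3 were higher and 13 lower, with a median of -0.35, or -0.71 without cell 4, -1.06 without cell 9 and -0.17 without cell 37. The G2/M list summed to 25135 CPM in cell 46, 14431 in cell 4 and 5943 in cell 9, and to 1082.5 to 2264 in the 4 others. Mki67, a marker of cycling cells, stood at 4047, 3124 and 1986 CPM in cells 46, 4 and 9 and at 60.5 or less in cells 23, 37, 22 and 31. Cell 46 carried 51 of the 52 G2/M genes at 200000 gene reads, where the others had a median of 19. Cell 37 carried 9 and cell 23 carried 12. Cell 46 also had 23.2 gene reads per ERCC read, with 4 others above it, the highest of the 7, where cell 4 had the lowest at 8.28. Cell 4 carried 40, cell 9 carried 22, with 15 of the others above it, and cells 22 and 31 carried 13 each. High and low G2/M counts thus occurred both above and below 500 CPM of Ccl6. The S phase list, by contrast, summed to 720 CPM in cell 23 and 953 in cell 37, below each of the 39 others, whose lowest was 991 and median 3531. It stood at 2633 CPM in cell 46 and at 11015, 10488, 2136 and 1695 in cells 4, 9, 31 and 22, where cell 4 was above each of the others. Cells 23, 46 and 37 carried 12, 22 and 6 of the 43 genes, and cells 4 and 9 carried 36 and 35. With only the 3 cells above 500 CPM of Ccl6 set against the rest, the S phase median was -3.31. With cells numbered 7 to 42 only, which leaves out cells 46 and 4, the G2/M median was -4.05.

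Signalling lists differed between cells. The cytokine signalling list summed to 5234 CPM in cell 23 and 6914 in cell 37, above the highest of the 39 others at 5175, and to 2350.3 to 4041 in the 5 other Ccl6 cells. Of 17 cytokine signalling genes compared, 1 was higher, Pim1 (1.58), a kinase induced by cytokines through Stat5, and 3 lower, among them Cish with no read in the 7 cells. Cish also had no read in 32 of the 39 others. Of 18 immediate early genes 6 were higher and 5 lower, with a median of 0.24. Their summed level had 2 to 7 of the 39 others above it in cells 4, 22, 46, 23 and 37, which ran from 1046 to 2163 CPM, and 18 and 25 above it in cells 31 and 9. The others had a median of 586 CPM and a highest value of 3356. Dusp1 and Jun, feedback and AP-1 genes of the stress response, had most reads in cells 22 and 4, at 753 and 1482 CPM. Of 10 NF-κB genes 1 was higher and 3 lower, and of 17 lysosomal and secretory genes 0 and 2. Among 15 transcription factors 1 was higher and 2 lower. The higher one, Spi1, which encodes the myeloid factor PU.1, stood at 741 CPM in cell 23 and from 22.8 to 365 in the others of the 7, and its log2 fold of 1.17 was 0.62 without cell 23. Gata2, needed for basophil and mast cell development, stood between 801 and 3501 CPM with a log2 fold of 0.30.

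Genes ranked highest by a rule that asked for the same sign in the sum, in the mean of cells, without the top cell and in the medians were mostly outside these lists. The 12 higher ones were Zfp703, Rnf121, Dusp7, Klf8, Hrh4, Gstm4, Hspbap1, Ccr2, Gm16333, Rnf31, Cfp and Mpv17, with log2 folds of 2.45 to 3.35. The fold of Hspbap1 (2.68) was 1.51 without cell 4, that of Gstm4 (2.62) 1.93 without cell 46 and that of Rnf121 (3.16) 2.52 without cell 31. Without cell 23, Klf8 (3.07) stood at 1.90 and Gm16333 (2.83) at 2.12. The rule also asked for a read in most cells of the higher set. Finding these genes in most of the 7 cells therefore follows from the rule and is no separate result. None of the 12 was found in all 7 cells. Rnf31, which encodes a subunit of the linear ubiquitin ligase, was found in 6 of 7 Ccl6 cells, against 19 of 39, and had summed levels of 181 and 32.4 CPM. Dusp7, a phosphatase of ERK kinases, was found in 5 Ccl6 cells and 6 others. It had no read in cells 23 and 37, which stood nearest the CD34-negative side, and 59.6 to 143 CPM in the 5 others. Cfp encodes properdin, the stabiliser of the alternative complement convertase, and stood at 245 CPM in cell 23 and 157 in cell 22, above the highest other cell at 80.3. Its log2 fold of 2.82 was 2.12 without cell 23. Its summed level was 70.0 CPM in the Ccl6 cells and 87.2 in the CD34-negative cells. Others of these genes were far lower in the CD34-negative sum, such as Rnf121 at 4.19 CPM beside 83.0, Klf8 at 5.53 beside 46, Dusp7 at 20.9 beside 67.6, Zfp703 at 10.5 beside 36.6 and Gm16333 at 4.07 beside 14.9. High levels in the Ccl6 cells were thus not always shared with that gate.

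The lower genes by the same rule included Plxnd1, Pold2, Poldip2, Fem1a, Slc25a37, Pde7a, Nudt5, Polr3f, Hsd17b12, Rce1 and Hps4. Plxnd1, Pold2, Poldip2, Nudt5 and Polr3f had no read in the 7 cells. With a Ccl6 limit of 10 CPM the direction turned for Pold2 (0.68) and Nudt5 (0.20). Plxnd1, a semaphorin receptor, had 60.9 CPM over the 39 other cells, of which 27 had a read, with a median of 25.6 CPM. It had 8.04 CPM over the CD34-negative cells. At the floor used for genes without a read, it was at least 99.8-fold lower in the Ccl6 cells, a bound that covers counting error only. Whether reads were missed in the 7 cells was not tested. Hps4, which serves lysosome-related organelles, had 1 read in the 7 cells and 1083 in the 39, a CPM ratio of 212 (counting interval 35.8 to 8883). It was found in 22 of 39 cells, where the rule asked for most of them. Its CD34-negative level of 51.8 CPM was not below the 43.1 of the others. Poldip2 (52.2 beside 58.1 CPM) and Pde7a (46 beside 52.4 CPM) were likewise near the level of the others in the CD34-negative sum. Of 6066 genes found in at least 20 of the 39 others, 34 were found in none of the 7.

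Markers of other cell types were measured in the same cells, and their part in the values above was not tested. Of 13 monocyte and macrophage markers 7 could be compared, and Csf1r, Ly6c2, Fcgr1 and Cd14 were among those with no read in the 7 cells. The list summed to 1077 CPM in cell 37, 669 in cell 31, 494 in cell 23, 366 in cell 22, 215 in cell 46, 103 in cell 9 and 12.3 in cell 4, beside 0 to 557 in the others. Ccr2, F13a1 and Ms4a6c made up most of it. Of 10 neutrophil markers, S100a8, S100a9, Ngp, Ltf, Camp, Retnlg, Mmp8 and Ly6g had no read in the 7 cells. Cxcr2 and Lcn2 gave the whole sum, 0 to 1893 CPM beside 0 to 1039.9. Of 9 eosinophil markers Epx, Prg3, Ear1, Ear2, Ear6 and Il5ra had no read, and the sum ran from 0 to 413 CPM beside 0 to 1496. The 9 mast cell markers summed to at most 3.00 CPM beside at most 285, and the 8 T and NK cell markers had no read in the CD34-positive cells. The dendritic, erythroid and B cell lists reached 153, 184 and 93.7 CPM in the 7 cells, beside 406, 273 and 590.4 in the others. In the CD34-negative gate, cell 10 had 20103 CPM of the dendritic and 6283 of the monocyte and macrophage list. Its basophil list summed to 2464 CPM, where the median of that gate was 36989. This cell was kept in the CD34-negative reference, and its part was not tested. The megakaryocyte list summed to 2672 CPM in cell 37, above the highest of the others at 2066, to 1987 in cell 23, with 1 other above it, and to 345 to 1075 in the 5 other Ccl6 cells. Nearly all of these reads were of Itga2b, and Pf4, Ppbp and Gp9 had none.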

How the data were processed

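Per the labels' protocols, each sorted cell gave a Smart-seq2-type cDNA library of polyadenylated RNA with ERCC spike-in RNA, sequenced from one end. The deposited table holds whole read counts per gene and cell, not normalized. Per the submitters' processing notes, GSNAP, HTSeq 0.5.3p3 and the build mm10 were used. The annotation release and strand setting are not given in the sources used here. Symbols matched 45143 of 46078 gene identifiers by name table. The rows without a symbol held 0.281% of gene reads, and ERCC rows (3.97% of all reads) and the 5 summary rows (63.6%) stayed out of library sizes. Columns of different cells were never identical (highest correlation 0.761). Single cells were sorted into wells, and doublets were not called. Whether any well held more than 1 cell was not tested.

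Members and gene lists were chosen with earlier results of these data known. Some lists name genes picked on these cells and are no independent evidence. Cells with at least 50000 gene reads were kept and split at 100 CPM of Ccl6, which was left out of all comparisons. Reads were summed per set, log2 folds used a pseudocount of 1 CPM, and genes needed a read in at least 5 kept CD34-positive cells. Exact 95% intervals are Poisson for sums and Clopper-Pearson for shares. Intervals of folds combine opposite bounds of both sums. The floor for 0 reads was 3 reads over the 7 cells, or 0.610 CPM. Detection used 200000 gene reads drawn per cell.

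The position is the projection of log2(CPM + 1) on the difference of the means of both reference sets, over genes with a log2 ratio of 2 or more in size and at least 10 CPM in one. Named genes had 10 CPM in a set and a read in most cells of the higher set, and the 12 with the largest smallest fold among 3 versions are named in each direction, besides list members. Some genes that this rule or the lists hold are not reported here. Genes chosen otherwise are marked as such. Alternatives were other Ccl6 limits, scalings (edgeR 4.0.16 TMM, scran 1.30.0, ERCC, without mitochondrial genes, without CT010467.1 and Gm26917), pseudocounts, gene filters, gate gene limits, drawing depths, cells numbered 7 to 42, and leaving out each Ccl6 cell. The limit of 500 CPM was added after the data were seen. Calculations were tested on simulated data and run in Python 3.11.15 with numpy 2.4.6, scipy 1.17.1, pandas 2.3.3 and matplotlib 3.10.9, and R 4.3.3.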

Additional observations from a re-analysis of the deposited data

Results flagged for a closer look

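Ccl6 reads were also present in the cells below the read limit, which no comparison uses. The CD34-negative cell 20, with 24565 gene reads, carried 4 Ccl6 reads, or 163 CPM. The CD34-positive cell 3, with 31504 gene reads, carried 2, or 63.5 CPM, under the limit of 100 CPM.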

How the results depend on the processing

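No paired analysis was possible because cell numbers are names that carry no pairing, and nothing was tested. The 500 CPM limit was chosen after seeing the data; the causes of the changes were not tested. Genes higher were 1496 and 483 without the top cell of each gene, 870 with a pseudocount of 10 CPM. Genes lower were 3634, and 2269, 5782 and 6173 at Ccl6 limits of 10, 500 and 1000 CPM, 6132 without the top cell, 1739 with a pseudocount of 10 CPM and 2376 at 10 CPM or more in a set. The median of all genes was -0.67 at 500 CPM, -0.81 at 1000 CPM and -0.85 without the top cell. At 500 and 1000 CPM the primary granule median was -3.29 and -3.81 and the S phase median -3.31 and -3.45, and the progenitor median was -1.53 at 500 CPM. The G2/M median was -4.05 with cells 7 to 42. The median position was 0.846 at 500 CPM and 0.669 at 1000 CPM. Ccl6 cells above every other CD34-positive cell numbered 2, but 1 with ERCC scaling and 0 at 1000 CPM, where cell 37 counts among the others, and 1 to 2 when each cell was left out (1 without cell 23 or without cell 37). The log2 ratio of gene reads per ERCC read was -0.42, and 0.23 at 1000 CPM. Leaving out each Ccl6 cell gave -1.33 to 0.81 for the G2/M and -1.06 to -0.17 for the S phase median.

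The spread of a gene was taken as the standard deviation of log2(CPM + 1) over the Ccl6 cells. It is wide for genes read in only some of these cells, so staying within it is no sign of a stable fold. Of 1340 alternative values for 67 genes, 1146 differed from the reported fold by less than this spread and 187 by more. The 7 left, all of genes past the fold limit, changed sign. These were Pold2 (0.68) and Nudt5 (0.20) at 10 CPM, Il10ra at 1000 CPM (-1.04) and without cell 37 (-1.02, the lowest of -1.02 to 2.53 when each cell was left out), Cd200r4 without cell 23 (-0.60, the lowest of -0.60 to 2.15) and without the top cell (-0.28), and Mki67 with cells 7 to 42 (-0.78). Il10ra, with a reported fold of 2.27, had a read in too few CD34-positive cells to be among the genes compared. Genes under the limit could change sign too, among them Csf2rb2 (-0.40 without cell 37), Fcer1a (-0.13 without cell 23) and Ccl3 (-0.06 without cell 46).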
